A study of Arabidopsis thaliana with 6 samples.

Results

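Iron deficiency in *Arabidopsis* turns on a small set of regulator genes that was followed here as 5 transcripts, those of the bHLH transcription factors *ORG2* (AT3G56970), *ORG3* (AT3G56980) and *BHLH100* (AT2G41240) and those of the IRON MAN peptide genes AT1G47400 and AT1G47395. They were picked by locus for their place in this response, with earlier results of these data known. All 5 were among the 454 genes of the deposited table. The table holds genes that the authors had called as changed in at least 1 mutant, so a change of a member is in part a condition for its presence and is no independent evidence of a direction. RNA-seq was performed on whole seedlings of the Col-0 accession, of the T-DNA insertion line *sr45* and of a line described as *sap18*, with 2 libraries for each of 3 genotypes. By the sample labels all of them grew for 11 days, although a figure legend of the study gives a slightly younger age, on MS medium at 22 °C under 16 h of light and 8 h of dark, without any iron treatment being named. SR45 is a splicing regulator and SAP18 its partner in the ASAP complex, and the comparison asks which transcript levels depend on each.

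The label of 1 genotype needs a caution. The descriptions of its libraries name *sap18*, whereas their titles and genotype labels name *sap18sr45*. In *sr45*, *SR45* mRNA lay 4.10-fold below Col-0 (5.19 ± 0.288 against 21.2 ± 2.64 cRPKM, SD, n = 2 libraries each) and stood at 22.0 ± 1.57 cRPKM in this genotype, while *SAP18* mRNA was 11.4-fold higher in it than in Col-0 (918 ± 25.1 against 80.2 ± 4.99 cRPKM). *SAP18* mRNA was thus not lower than in Col-0, although both labels name a *sap18* mutant. *SR45* mRNA lay near its Col-0 level, unlike in *sr45*, although the titles name *sr45* as well. An mRNA level alone does not tell whether an insertion is present, and the genotype was not settled. The libraries of this genotype are called the libraries labelled *sap18* throughout, and this doubt applies to each direction taken from them. Values are cRPKM, reads corrected for mappable positions and library size, which the authors made equal in distribution between libraries. The depth behind a value is unknown. Over the 454 genes the libraries summed to between 14207 and 19910 cRPKM. Whether the 2 libraries of a genotype were grown separately is not stated, and the p-values therefore cover the spread between libraries, which may be technical.

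As background, iron-starved roots activate bHLH factors of the subgroup to which *ORG2*, *ORG3* and *BHLH100* belong. These factors pair with the bHLH protein FIT, and such pairs activate genes of iron uptake, among them the iron transporter gene *IRT1* and the ferric reductase gene *FRO2*. IRON MAN peptides are short and rich in aspartate at their end, bind the ubiquitin ligase BTS and keep it from the bHLH factors that switch the response on. Transcripts of both groups are low under iron sufficiency and are widely read as markers of the response. In whole seedlings, fewer cells of a type and less RNA per cell cannot be told apart.

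The IRON MAN members are very short genes. On TAIR10.1, AT1G47395 lies on chromosome 1 from 17382998 to 17383830 and AT1G47400 from 17385707 to 17386485, both on the plus strand with 1 exon, and the 1876 bases between them hold no annotated gene. Each has a coding sequence of 153 bases, or 50 codons before the stop, and 136 of the 153 bases are identical (88.9%). The coding sequences are shown from the RefSeq annotation of TAIR10.1, because the stretch that all these peptides share is at the end. Capitals mark the last 55 bases, which are identical in the members. AT2G30766, another IRON MAN gene (IMA3), has a coding sequence of 144 bases on chromosome 2. It is not a member here and was in the list of other iron genes. It had 37 of these 55 bases (67.3%) at the same positions counted from the stop.
AT1G47400: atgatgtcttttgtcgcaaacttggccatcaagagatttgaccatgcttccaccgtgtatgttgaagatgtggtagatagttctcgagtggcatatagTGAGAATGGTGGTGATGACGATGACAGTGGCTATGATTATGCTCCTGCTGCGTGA
AT1G47395: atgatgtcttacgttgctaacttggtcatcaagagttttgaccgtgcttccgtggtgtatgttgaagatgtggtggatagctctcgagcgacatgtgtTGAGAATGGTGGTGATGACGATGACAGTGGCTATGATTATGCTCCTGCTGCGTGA
AT2G30766: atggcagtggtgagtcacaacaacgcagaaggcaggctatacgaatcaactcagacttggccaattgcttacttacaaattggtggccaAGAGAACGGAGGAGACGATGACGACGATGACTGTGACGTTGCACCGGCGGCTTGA

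The members also share 59 identical bases in a row in their mRNAs, and 10 of the 730 words of 50 bases in AT1G47400 also occur in AT1G47395. A read that lies wholly within that stretch cannot be assigned to either gene, whereas a longer one reaches beyond it. The study sequenced longer reads, but the length used for mapping is not given in the sources used here. Nor is it given how reads that match both genes were treated, so the split between them is uncertain to that extent.

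*ORG2* and *ORG3* form a tandem pair on the minus strand of chromosome 3, from 21084035 to 21085245 and from 21086390 to 21087710, with 1144 bases and no annotated gene between them. *BHLH100* lies on the minus strand of chromosome 2, from 17198037 to 17199454. Each of these genes has 2 exons. Their coding sequences are 84.8% identical between *ORG2* and *ORG3*, 75.3% between *ORG2* and *BHLH100* and 76.3% between *ORG3* and *BHLH100*, and no word of 50 bases is shared by their mRNAs. The end of *ORG2* overlaps 386 bases of *PIP5K4* on the opposite strand. The libraries kept the strand, but whether counting used it is not given in the sources used here, and the level of *ORG2* is uncertain to that extent. No other gene of the table lay within 20 kb of *ORG2*, *ORG3*, AT1G47400 or AT1G47395 than the tandem partner, and none within 20 kb of *BHLH100*.

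The 250 bases upstream of the annotated start of each bHLH member are shown, since these genes moved together and bHLH factors bind E-boxes (CANNTG), of which the G-box (CACGTG) is 1 form. Both motifs read the same on either strand, and every CACGTG is also a CANNTG. Capitals mark CACGTG, which was found in *ORG2*, starting 97 bases upstream of the start, and in *BHLH100*, 91 bases upstream.
ORG2: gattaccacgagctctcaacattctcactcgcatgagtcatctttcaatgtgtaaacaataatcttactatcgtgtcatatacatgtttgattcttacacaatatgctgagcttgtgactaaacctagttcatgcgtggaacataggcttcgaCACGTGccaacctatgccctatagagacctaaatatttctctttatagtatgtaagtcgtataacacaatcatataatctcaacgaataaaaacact
ORG3: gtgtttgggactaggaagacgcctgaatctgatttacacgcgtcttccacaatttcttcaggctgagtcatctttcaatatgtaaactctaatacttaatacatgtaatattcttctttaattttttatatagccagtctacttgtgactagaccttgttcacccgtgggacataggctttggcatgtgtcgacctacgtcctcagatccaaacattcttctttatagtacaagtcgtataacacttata
BHLH100: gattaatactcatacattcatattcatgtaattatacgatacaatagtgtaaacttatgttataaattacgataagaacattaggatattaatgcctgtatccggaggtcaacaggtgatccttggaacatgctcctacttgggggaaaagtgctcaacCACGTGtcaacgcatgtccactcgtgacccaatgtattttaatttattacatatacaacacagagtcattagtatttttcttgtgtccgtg

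The windows of the tandem pair *ORG2* and *ORG3* were 76.3% identical over their aligned bases, and those of *ORG2* and *BHLH100* 62.8%. The same window is shown for the IRON MAN members to set their tandem copies side by side. They were 88.0% identical and held no CACGTG.
AT1G47400: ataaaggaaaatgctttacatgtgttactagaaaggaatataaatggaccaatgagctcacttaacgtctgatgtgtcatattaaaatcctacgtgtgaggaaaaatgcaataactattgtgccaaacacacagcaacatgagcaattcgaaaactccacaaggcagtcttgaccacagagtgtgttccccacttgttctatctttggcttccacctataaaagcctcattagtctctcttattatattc
AT1G47395: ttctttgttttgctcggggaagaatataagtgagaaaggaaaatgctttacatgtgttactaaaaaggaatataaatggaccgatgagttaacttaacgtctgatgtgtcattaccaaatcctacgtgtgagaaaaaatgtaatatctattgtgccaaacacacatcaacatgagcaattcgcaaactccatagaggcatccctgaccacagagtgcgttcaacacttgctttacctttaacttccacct

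CACGTG thus occurred in 2 of 5 members. It occurred in 6.49% of the 27444 protein-coding genes of TAIR10.1 and in 9.13% of the 427 protein-coding genes of the table. CANNTG occurred in 5 of 5 members, against 55.3% of all protein-coding genes and 59.95% of those of the table. *BHLH101*, another bHLH gene of the same subgroup treated below, had 0 of either motif in its window. AT2G30766 had 0 CACGTG and 2 CANNTG, but its window overlapped another gene, AT2G30760, which no window of a member did. Windows of tandem copies are much alike, so the members are not separate cases. A match is only a description of these letters and not a binding site.

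All members were higher in *sr45* than in Col-0. *BHLH100*, whose product acts in the iron deficiency response, stood at 3.15 and 4.42 cRPKM in the Col-0 libraries, 3.18 and 5.001 in those labelled *sap18* and 21.0 and 24.3 in *sr45*. Its mean rose 5.98-fold in *sr45*, and its log2 change was 2.31 (SE 0.22, adjusted p = 9.53e-05 from limma). Throughout, fold values are ratios of mean cRPKM. The log2 changes were instead taken after a pseudocount, a small constant, was added to each value. This understates changes of low genes, so a log2 change is not the log2 of the fold value beside it. Both *sr45* libraries lay far above the other 4, which overlapped.

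*ORG2*, a close relative of *BHLH100*, had 4.05 and 3.97 cRPKM in Col-0, 2.56 and 3.40 in the libraries labelled *sap18* and 20.8 and 14.3 in *sr45*. It rose 4.37-fold (log2 change 1.87, SE 0.21, adjusted p = 0.000167). The *sr45* libraries differed most between themselves for this member, but the lower one was still 3.53 times the higher Col-0 library. For *ORG3*, the tandem copy of *ORG2*, the values were 3.41 and 2.68 cRPKM in Col-0, 1.38 and 2.02 in the libraries labelled *sap18* and 12.9 and 11.9 in *sr45*. It rose 4.07-fold (log2 change 1.73, SE 0.18, adjusted p = 0.000125), and the 3 genotypes did not overlap.

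AT1G47395 was the most abundant member in every library. Its values were 10.4 and 10.8 cRPKM in Col-0, 6.69 and 8.24 in the libraries labelled *sap18* and 41.4 and 38.5 in *sr45*, where it rose 3.78-fold (log2 change 1.82, SE 0.16, adjusted p = 6.88e-05). AT1G47400 stood at 5.07 and 4.81 cRPKM in Col-0, 4.46 and 4.00 in the libraries labelled *sap18* and 18.4 and 15.8 in *sr45*, and rose 3.46-fold (log2 change 1.60, SE 0.15, adjusted p = 9.53e-05). For both IRON MAN members the order of the genotypes was the same and no library crossed into another genotype.

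**Figure D1:**
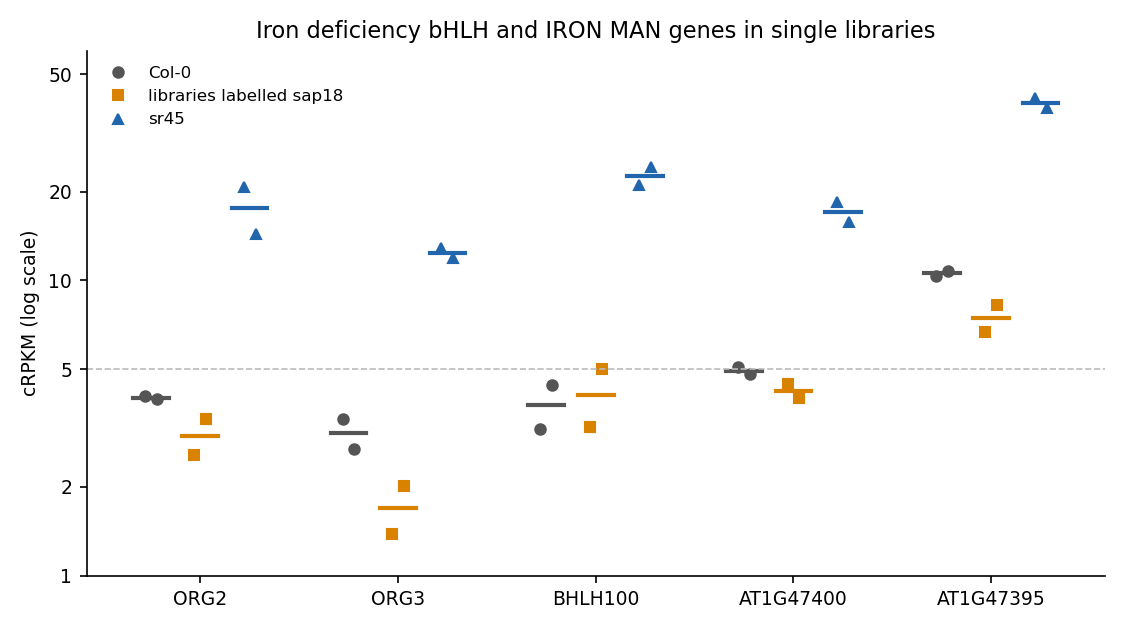
cRPKM (log scale) of the 5 members in the 6 libraries; points are single libraries, short bars are means of 2 libraries and the dashed line is the level of 5 cRPKM used by the fold criterion. The *sr45* libraries lie between 11.9 and 41.4 cRPKM, above all other libraries of the same gene, while Col-0 and the libraries labelled *sap18* lie between 1.38 and 10.8.

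By limma, 5 of 5 members were called higher in *sr45* than in Col-0, in a table where 27.5% of the 454 genes were called higher and 61.0% lower. The median log2 change was 1.82 over the members and -0.96 over all genes of the table, so the members moved against most of the table. In rank from the highest change they stood at places 6 (*BHLH100*), 11 (*ORG2*), 13 (AT1G47395), 17 (*ORG3*) and 21 (AT1G47400) of 454. A fold criterion was taken from the methods of the study, without their minimum of reads, for which the table holds no values. It asks that each of the 4 ratios between single libraries reaches 2, all in the same direction, with more than 5 cRPKM in both libraries of a genotype. Over the table, 52 genes met it as higher and 137 as lower in *sr45*, and 42 and 48 in the libraries labelled *sap18*, so many of the 454 genes met it in neither and it is not shown to be the rule by which the table was made. It was met by 5 of 5 members as higher in *sr45*, against 11.5% of the table. All members but AT1G47395 exceeded 5 cRPKM in both libraries of *sr45* and of no other genotype. For these 4 the criterion could only be met through the group where they were high. In the libraries labelled *sap18* 0 members met it, so their presence in the table may rest on *sr45* itself. The limma calls use the same values and describe the rise without being independent support for it. The calls did not rest on a single library or on the libraries labelled *sap18*. With the latter left out of the fit the adjusted p of the members ranged from 0.000359 to 0.000756, and over all alternatives the highest was 0.00213, for *ORG2*.

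In the libraries labelled *sap18* the members stayed near or below the level of Col-0. None was called higher, where 29.3% of the table was, and 2 of 5 were called lower, where 45.8% of the table was, so the share of lower members was near that of the table. The lower ones were *ORG3*, at 1.70 ± 0.450 against 3.05 ± 0.511 cRPKM (SD, n = 2; log2 change -0.59, SE 0.18, adjusted p = 0.018), and AT1G47395, at 7.47 ± 1.09 against 10.6 ± 0.277 cRPKM (log2 change -0.46, SE 0.16, adjusted p = 0.0294). Neither met the fold criterion. Both calls were fragile and did not hold in every fit with a library left out. Such a fit keeps only 1 library of a genotype, so a lost call also reflects fewer data. The log2 change of *ORG3* was -0.46 without Col-0 replicate 1 and -0.42 without *sap18* replicate 1. That of AT1G47395 was -0.48 without Col-0 replicate 1, -0.43 without Col-0 replicate 2 and -0.32 without *sap18* replicate 1. Neither passed after each mutant library was rescaled on the genes that met the fold criterion in the other mutant alone (adjusted p = 0.242 and 0.926). That rescaling removed shifts of -0.49 and -0.48 on the log2 scale from the libraries labelled *sap18*, against -0.036 and -0.055 in *sr45*. The 145 genes used for the libraries labelled *sap18* were picked for a change in *sr45*. A smaller change shared by both lines would be removed with them and cannot be told apart from scale.

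For the other members the difference was not larger than the spread. *ORG2* had a log2 change of -0.34 (95% interval -0.82 to 0.14, adjusted p = 0.158), AT1G47400 of -0.18 (-0.54 to 0.17, 0.294) and *BHLH100* of 0.078 (-0.44 to 0.59, 0.754). A change of the size seen in *sr45* lay outside each of these intervals, whereas a smaller one in either direction did not. Of the 5 members, 4 had all 4 ratios of single libraries below 1, and *BHLH100* did not. The share of the table with such ratios was not counted. As 280 of the 454 genes had a negative log2 change here, with a median of -0.38, this count is not a result particular to the members. The sign of *ORG2* and AT1G47400 turned with the rescaling.

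Compared directly, the members were higher in *sr45* than in the libraries labelled *sap18*. The difference was 7.30-fold for *ORG3* (log2 difference 2.32, SE 0.18, adjusted p = 9.65e-05), 5.89-fold for *ORG2* (2.21, SE 0.21, 0.000144), 5.53-fold for *BHLH100* (2.23, SE 0.22, 0.000173), 5.35-fold for AT1G47395 (2.28, SE 0.16, 5.54e-05) and 4.04-fold for AT1G47400 (1.79, SE 0.15, 0.000125). By limma 5 of 5 were called higher, against 14.1% of the table, and 44.3% of the table was called lower. The fold criterion was met by 5 of 5, against 5.29% of the table, but for all members except AT1G47395 it could again be met only through the high level in *sr45*, and this count adds no support. The median difference was 2.23 for the members and -0.40 for the table, and the members held places 3, 4, 5, 8 and 11 from the top. With the rescaling the differences were smaller, between 1.43 and 2.04, and all 5 calls held.

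**Figure D2:**
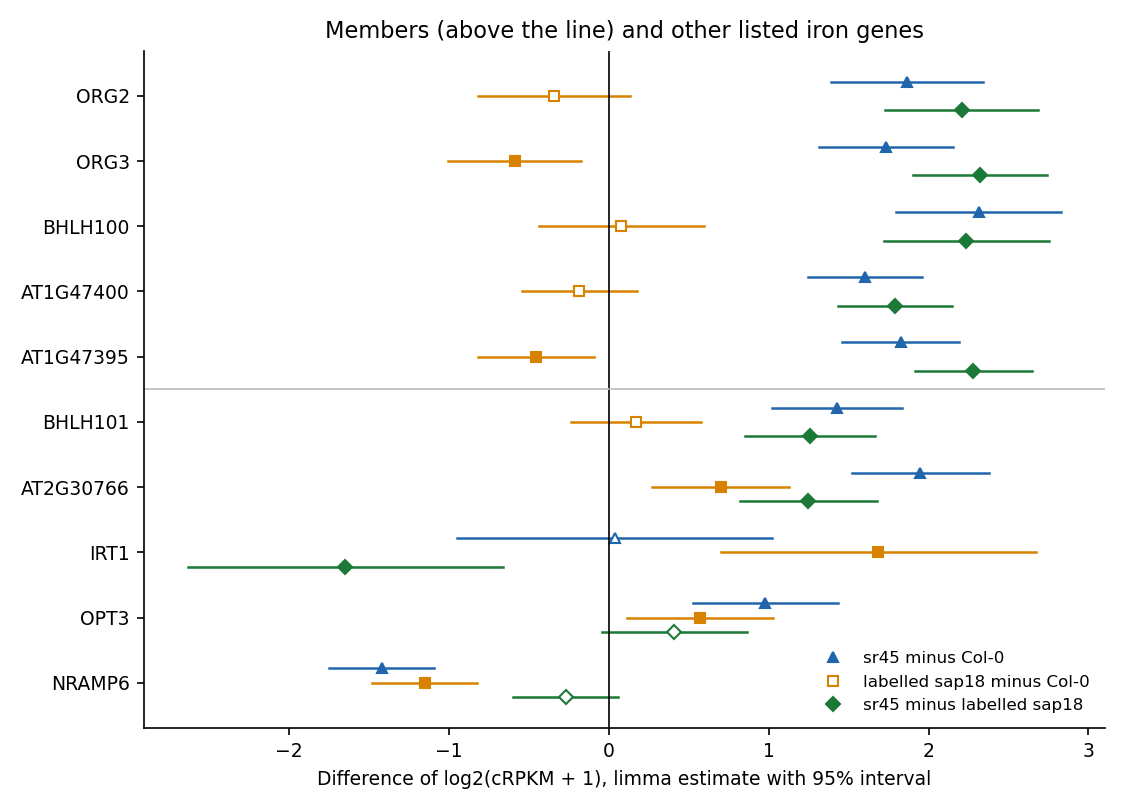
Differences of log2(cRPKM + 1) between genotypes (x axis) for the 5 members and the 5 other listed iron genes (y axis), with 95% intervals from limma; filled symbols have an adjusted p below 0.05 and open symbols do not. The 5 members lie between 1.60 and 2.31 in *sr45* and between -0.59 and 0.078 in the libraries labelled *sap18*, while *IRT1* lies at 0.038 and 1.69.

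**Figure D3:**
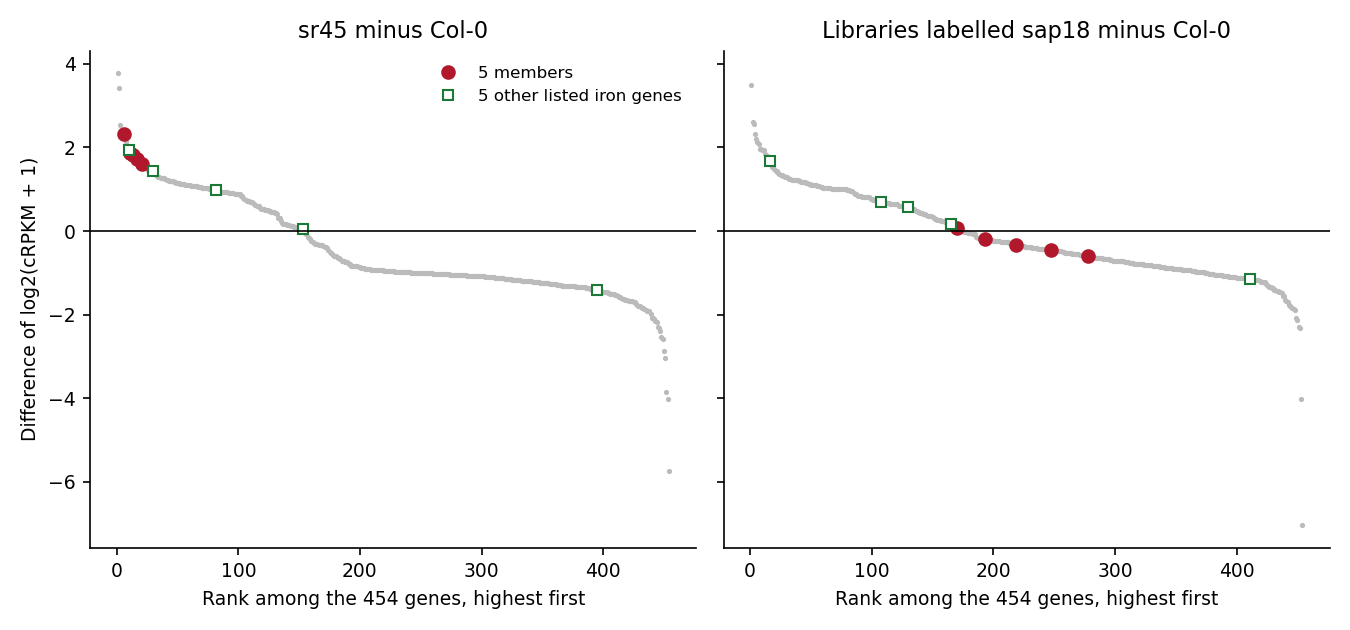
Difference of log2(cRPKM + 1) from Col-0 (y axis) of the 454 genes against their rank from the highest (x axis), for *sr45* on the left and the libraries labelled *sap18* on the right; grey points are single genes of the table. The members take places 6 to 21 in *sr45* and places 170 to 278 in the libraries labelled *sap18*.

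The proportions between the members are described for single libraries, without a test. In Col-0 the order of the mean levels was *ORG3* (3.05 cRPKM), *BHLH100* (3.79), *ORG2* (4.01), AT1G47400 (4.94) and AT1G47395 (10.6), and the libraries of *ORG2* lay within the range of those of *BHLH100*. In *sr45* the order was *ORG3* (12.4), AT1G47400 (17.1), *ORG2* (17.5), *BHLH100* (22.6) and AT1G47395 (40.0), where AT1G47400 and *ORG2* overlapped. AT1G47395 was 2.04 and 2.24 times AT1G47400 in Col-0, 1.501 and 2.06 times in the libraries labelled *sap18* and 2.24 and 2.44 times in *sr45*. The ratio of *ORG2* to *ORG3* was 1.19 and 1.48 in Col-0, 1.85 and 1.68 in the libraries labelled *sap18* and 1.61 and 1.21 in *sr45*, so Col-0 and *sr45* overlapped. *BHLH100* was 0.925 and 1.65 times *ORG3* in Col-0, 2.30 and 2.48 times in the libraries labelled *sap18* and 1.62 and 2.04 times in *sr45*. Its ratio to *ORG2* was 0.778 and 1.11 in Col-0, 1.24 and 1.47 in the libraries labelled *sap18* and 1.01 and 1.69 in *sr45*. In both ratios the libraries labelled *sap18* lay above Col-0 without overlap, while *sr45* overlapped with Col-0, and no test was run on them. In Col-0 and the libraries labelled *sap18* they rest on low levels, between 1.38 and 5.001 cRPKM.

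The summed level of the 3 bHLH members was 10.6 and 11.1 cRPKM in Col-0, 7.12 and 10.4 in the libraries labelled *sap18* and 54.7 and 50.5 in *sr45*. That of the 2 IRON MAN members was 15.4 and 15.6, 11.2 and 12.2, and 59.8 and 54.3 cRPKM in the same order. The sum of the 2 IRON MAN members, without AT2G30766, was 1.46 and 1.40 times the bHLH sum in Col-0. It was 1.57 and 1.18 times in the libraries labelled *sap18* and 1.09 and 1.08 times in *sr45*. The *sr45* libraries had the lowest ratios, a difference that was not tested. Over the 6 libraries, Pearson's r of log2(cRPKM + 1) between members ranged from 0.943 for *ORG3* and *BHLH100* to 0.994 for *ORG3* and AT1G47395, a description in which the genes share their libraries and the high *sr45* libraries are 2 of the 6 points.

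The rest of the iron response was thinly represented. Of 52 other iron genes listed, 5 were in the table, namely 2 of 15 regulators, 1 of 10 uptake genes, 2 of 19 distribution genes and 0 of 8 genes of storage and iron proteins. The others were not analysed here. In *sr45*, 3 of the 5 were called higher, 1 lower and 1 neither, where 27.5% of the table was called higher and 61.0% lower. Their median log2 change was 0.98. In the libraries labelled *sap18* the counts were likewise 3, 1 and 1, where 29.3% of the table was called higher and 45.8% lower, with a median of 0.57.

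*BHLH101*, the remaining bHLH factor of the same subgroup, followed the members at a smaller size. It had 3.50 and 4.89 cRPKM in Col-0, 4.54 and 5.05 in the libraries labelled *sap18* and 12.5 and 13.2 in *sr45*, a 3.07-fold rise (log2 change 1.43, SE 0.17, adjusted p = 0.00024). Its log2 change in the libraries labelled *sap18* was 0.17 (adjusted p = 0.391), which passed the test only after the rescaling (0.58, adjusted p = 0.0224). Its coding sequence was 61.1% to 64.3% identical to those of the bHLH members, less than these are to each other.

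AT2G30766, whose coding end is shown above, was the most abundant listed iron gene of the table. Its levels were 37.4 and 27.3 cRPKM in Col-0, 50.2 and 55.2 in the libraries labelled *sap18* and 121 and 132 in *sr45*, a 3.91-fold rise in *sr45* (log2 change 1.95, SE 0.19, adjusted p = 9.53e-05). Unlike any member it was also called higher in the libraries labelled *sap18* (log2 change 0.70, SE 0.19, adjusted p = 0.00977 from limma). The call was lost without Col-0 replicate 2 (log2 change 0.48) or *sap18* replicate 2 (0.63), with only 1 library of that genotype left. Between *sr45* and these libraries it differed by 1.25 on the log2 scale (adjusted p = 0.00129).

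*IRT1*, the main iron transporter gene of root uptake and a known target of the bHLH factors, did not follow them. Its levels were 1.60 and 4.05 cRPKM in Col-0, 7.11 and 15.7 in the libraries labelled *sap18* and 1.94 and 3.70 in *sr45*. The *sr45* libraries lay inside the range of Col-0 (log2 change 0.038, 95% interval -0.95 to 1.02, adjusted p = 0.933). In the libraries labelled *sap18* it was 4.04-fold higher (log2 change 1.69, SE 0.42, adjusted p = 0.00797), without overlap, although the libraries of a genotype differed by more than for any member. The call was lost without Col-0 replicate 1 (log2 change 1.21) or *sap18* replicate 2 (1.16), with only 1 library of that genotype left. The difference of *sr45* from the libraries labelled *sap18* was -1.65 on the log2 scale (adjusted p = 0.0129 from limma). This call was lost without *sap18* replicate 2 (log2 difference -1.13) or *sr45* replicate 1 (-1.31), again with 1 library left.

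*OPT3*, a transporter gene of the phloem that moves iron from shoots, had 21.4 and 18.9 cRPKM in Col-0, 30.9 and 29.8 in the libraries labelled *sap18* and 48.7 and 33.9 in *sr45*. It rose 2.05-fold in *sr45* (log2 change 0.98, SE 0.20, adjusted p = 0.00178). In the libraries labelled *sap18* its log2 change was 0.57 (adjusted p = 0.0292 from limma). It did not pass with any 1 of the Col-0 or *sap18* libraries left out, although the log2 change was then 0.48 to 0.66. *NRAMP6*, a metal transporter gene, was the listed gene that fell, from 8.30 and 8.57 cRPKM in Col-0 to 3.14 and 3.36 in the libraries labelled *sap18* and 2.47 and 2.58 in *sr45*. Its log2 changes were -1.15 (SE 0.14, adjusted p = 0.000617) and -1.42 (SE 0.14, adjusted p = 0.00011).

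Root transcripts differed between the genotypes as well. Of 10 listed root markers, 4 were in the table (the peroxidase genes *PER22*, *PER32*, *PER33* and *PER30*), and none of the defining markers *PYK10*, *CASP1* and *COBL9* was. Their summed level was 31.2 and 36.9 cRPKM in Col-0, 52.8 and 65.1 in the libraries labelled *sap18* and 54.7 and 60.4 in *sr45*. By limma, 2 of the 4 were higher in *sr45* (*PER33* and *PER30*) and 3 in the libraries labelled *sap18* (*PER22*, *PER32* and *PER30*), beside 27.5% and 29.3% of the table. The sum was thus above Col-0 in both, but partly through different genes. Mean *PER33* was 31.4 cRPKM for *sr45*, 14.1 for Col-0 and 12.7 under the *sap18* label. Under that label the means of *PER22* and *PER32* were 14.0 and 24.2 cRPKM. They were 5.52 and 10.9 for Col-0, and 7.86 and 12.2 for *sr45*. Mean *PER30* was above Col-0 (3.47 cRPKM) for *sr45* (6.04) and under the *sap18* label (7.99). The table holds only genes called as changed, so these 4 do not stand for the list. Of 6 listed leaf markers only *LHCB4.3* was in the table, with log2 changes of 0.44 (*sr45*) and 1.03 (libraries labelled *sap18*). The part of organ proportions in the levels of the members was not tested.

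The genes most like the members in pattern were found by the Euclidean distance between profiles of log2(cRPKM + 1) minus the Col-0 mean over the 6 libraries, taken to the mean profile of the members. The members themselves lay at 0.234 (AT1G47395) to 0.917 (*BHLH100*), and the median of the table was 4.10. Each member is part of the mean profile, so its own distance is small in part by construction. Nearest outside the set was *BBX30*, a B-box protein gene, at a distance of 0.399, with 2.41 and 2.06 cRPKM in Col-0, 1.29 and 1.36 in the libraries labelled *sap18* and 9.51 and 10.05 in *sr45*. It was closer to the mean profile than 3 of the members. Next came AT2G14247 (0.589), AT3G58270 (0.839), AT4G04293, annotated as a pseudogene in RefSeq (0.841), *BHLH101* (0.961) and *IAA29*, an Aux/IAA gene of auxin response (1.07).

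These 6 genes rose in *sr45* by between 1.26 (*IAA29*) and 2.21 (AT4G04293) on the log2 scale, with adjusted p between 6.38e-05 and 0.000401. AT2G14247 reached 54.8 and 47.7 cRPKM in *sr45*, against 9.54 and 15.7 in Col-0 and 10.9 and 9.28 in the libraries labelled *sap18*. AT4G04293 had 5.06 and 7.00 cRPKM in Col-0, 3.57 and 3.35 in the libraries labelled *sap18* and 27.7 and 35.0 in *sr45*. As nearness was measured on the same values, these rises restate it. *BHLH101* was the listed iron gene with the nearest pattern, at place 10 of 454, whereas AT2G30766 took place 29, *OPT3* 58, *IRT1* 182 and *NRAMP6* 393.

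**Figure D4:**
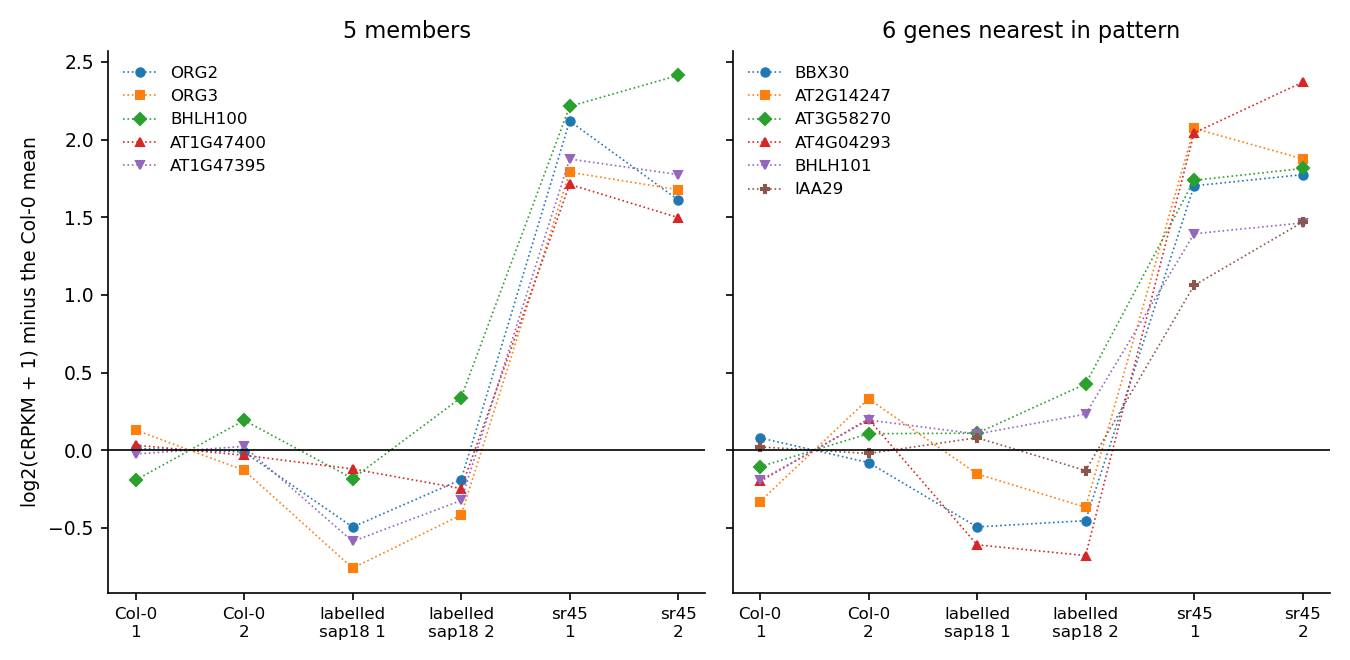
log2(cRPKM + 1) minus the Col-0 mean (y axis) in the 6 libraries (x axis), for the 5 members on the left and the 6 genes nearest to their mean profile on the right; dotted lines join the values of a gene and mark no order. Both panels step up in *sr45* only, by between 1.60 and 2.31 for the members and between 1.26 and 2.21 for the nearest genes.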

How the data were processed

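Reads of 6 stranded poly(A) libraries had been mapped by the authors with vast-tools, and the deposited values are cRPKM, an RPKM over mappable positions, quantile-normalised between libraries (genome build TAIR 10 in the submitters' processing notes). No reads were used, and 0 columns were left without a sample. Groups followed the sample descriptions. Values as log2(cRPKM + 1) of the 3 genotypes were fitted jointly by limma 3.58.1 (R 4.3.3), with no replicate block, moderated variance and Benjamini-Hochberg adjustment over all 454 genes at 0.05. A pseudocount of 1 understates changes of low genes. The scripts were tested on simulated data. Of the 454 loci, 450 were found in the RefSeq table of TAIR10.1. Sequences were read with Python 3.11.15, numpy 2.4.6, pandas 2.3.3 and Biopython 1.88, and plots drawn with matplotlib 3.10.9.

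The members, the gene lists and the tests were chosen with earlier results of these data known. The rule names all 5 members, the listed iron genes in the table, *SR45* and *SAP18*, and the 6 genes nearest in pattern. Alternatives changed the pseudocount, the filter, the fold threshold of the criterion (applied without the minimum of reads in the methods), the samples and variance model of the fit, the scaling and the block, and left out each library in turn.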

Additional observations from a re-analysis of the deposited data

Results flagged for a closer look

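When limma tested *sr45* directly against the libraries labelled *sap18*, the change from Col-0 differed between the lines for 8 of the 10 members and listed iron genes, in a table where 14.1% of the 454 genes were higher and 44.3% lower in *sr45*. The 5 members were higher in *sr45*, by 2.21 (*ORG2*), 2.32 (*ORG3*), 2.23 (*BHLH100*), 1.79 (AT1G47400) and 2.28 (AT1G47395) on the log2 scale. *BHLH101* and AT2G30766 were also higher in *sr45*, by 1.26 and 1.25. *IRT1* went the other way, with a difference of -1.65 (adjusted p = 0.0129). This call was lost without *sap18* replicate 2 (log2 difference -1.13) or *sr45* replicate 1 (-1.31), with only 1 library of that genotype left. The conflict between the labels of these libraries, and their high *SAP18* mRNA, touches each of these differences.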

How the results depend on the processing

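The calls of the 5 members in *sr45*, against Col-0 and against the libraries labelled *sap18*, held in 65 of 65 combinations of member and alternative in each comparison. In the libraries labelled *sap18*, 2 members were called lower, but 1 was with a pseudocount of 5 and 0 with the mutant libraries rescaled. Fewer were called in some fits with a library left out, where a genotype keeps only 1. The causes were not tested. With only genes above 5 cRPKM the count was 1, since AT1G47395 was then the only member tested, and it kept its call. Signs of small changes turned. After rescaling, *ORG2*, AT1G47400, AT2G14247 and *IAA29* had log2 changes of 0.036, 0.22, 0.19 and 0.41 in the libraries labelled *sap18*, and *OPT3* differed by -0.019 between *sr45* and these. With 1 library left out, the log2 change in the libraries labelled *sap18* ranged from -0.18 to 0.34 for *BHLH100*, from -0.026 to 0.36 for *BHLH101*, from -0.59 to 0.071 for AT2G14247 and from -0.13 to 0.080 for *IAA29*, and that of *IRT1* in *sr45* from -0.44 to 0.52.

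Over the table, rescaling moved the calls in the libraries labelled *sap18* from 133 higher and 208 lower to 171 and 96, and those between *sr45* and these from 64 higher and 201 lower to 38 and 304. Without *sap18* replicate 2 the latter were 40 and 106, and without *sap18* replicate 1 they were 41 and 114. The fold criterion as applied here gave 52 higher and 137 lower genes in *sr45*, 100 and 264 at a fold of 1.5, 18 and 33 at a fold of 3. In the libraries labelled *sap18* it gave 42 and 48, 102 and 149 at 1.5, 13 and 10 at 3, and 114 and 13 after rescaling.

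The replicate numbers did not pair the libraries, as deviations from the genotype means correlated at -0.035, -0.11 and 0.080. With a replicate block, 5 members were called higher in *sr45*, and the table's calls there went from 125 higher and 277 lower to 127 and 278. A crossed block, chosen after seeing the data, gave 124 and 279. The depth is unknown, and 2 libraries a genotype limit what small changes can be resolved.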
